A study of Homo sapiens with 18 samples.

Results

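Long noncoding RNAs (lncRNAs) are transcripts that act as RNA rather than as templates for protein, and 9 of them were followed here in an RNA immunoprecipitation experiment with the RNA-binding protein ADAR3. They were chosen by Ensembl ID, as lncRNAs present in all 4 deposited tables, out of 60666 IDs in each immunoprecipitation table and 34429 in the input table. A set of 5 is known mainly from the nucleus: MALAT1 (ENSG00000251562), NEAT1 (ENSG00000245532), KCNQ1OT1 (ENSG00000269821), TUG1 (ENSG00000253352) and PVT1 (ENSG00000249859). The other 4 are largely cytoplasmic in the literature: NORAD (ENSG00000260032), OIP5-AS1 (ENSG00000247556), DANCR (ENSG00000226950) and CYTOR (ENSG00000222041). The cells were U373-MG, an established human glioblastoma line grown under G418. Retroviruses carried an empty resistance vector into the control cells, FLAG-tagged ADAR3 of wild-type sequence into the ADAR3 WT cells, and FLAG-tagged ADAR3 with a mutated R-domain into the ADAR3 R-Mutant (below, R-mutant) cells. Each genotype gave 3 input and 3 immunoprecipitate (IP) libraries, 18 in all, after UV crosslinking of the cells at 150 mJ/cm2. ADAR3 was thus expressed from a transgene in both FLAG groups. The labels do not say whether replicates were separate cultures, so the errors may be technical.

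ADAR3 belongs to the ADAR family, whose double-stranded RNA-binding domains recognise paired stretches of RNA. It is found mainly in brain, has no detectable deaminase activity, and carries an arginine-rich R-domain that can bind single-stranded RNA. MALAT1 collects in nuclear speckles, and NEAT1 is the scaffold of paraspeckles, bodies that also hold proteins of RNA processing. KCNQ1OT1 is transcribed antisense within KCNQ1 and silences neighbouring imprinted genes, TUG1 has been tied to chromatin regulation and is also found outside the nucleus, and PVT1 lies on chromosome 8 in a region often amplified in cancer. NORAD sequesters Pumilio proteins, OIP5-AS1 (cyrano) pairs with a microRNA, DANCR is the host of a small nucleolar RNA, and CYTOR is raised in many tumours.

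The tables give, for each gene, a mean normalized count, a log2 fold change and its standard error (SE), but no value that can be assigned to a labelled library. Values per library are therefore not shown, and depth per library is unknown. IP enrichment below is the log2 fold change between genotypes of IP relative to input, as read from the authors' deposited tables. Because counts were normalized between libraries, it is relative to all other RNAs, so a change common to every RNA would not be seen. The tables pair no ID with a symbol, so the markers of the cell line and ADAR3 itself were not analysed by name. In the authors' deposited table, the ID that rose most in input was ENSG00000185736, at a log2 fold change of 10.09 ± 0.34 (SE).

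The counts behind the members' values differed widely, and this sets what can be said of each. In the authors' deposited table for ADAR3 WT over control, the mean normalized count was 156100 for MALAT1 and 161738 for NEAT1, which rank 7 and 6 among the 21121 genes tested. It was 20404.5 for PVT1, 3909 for NORAD, 1953 for TUG1 and 1766 for KCNQ1OT1. The other cytoplasmic members had few counts, with means of 31.0 for CYTOR, 10.3 for OIP5-AS1 and 0.966 for DANCR in the same deposited table. All 5 nuclear members but only 1 of 4 cytoplasmic members, NORAD, had a mean of at least 50 in every table. Such means are low for DANCR and OIP5-AS1, which are usually well detected in cell lines, and whether the annotation or the handling of overlapping or multi-mapping reads lowered them was not tested. Their values are therefore uncertain, as are those of CYTOR for a reason given below. DANCR had no adjusted p in any of the authors' deposited tables, so 8 of 9 members were tested. These means are not scaled to transcript length and do not order the members by expression.

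Sequence at RefSeq starts (GRCh38.p14) is shown for MALAT1, NORAD and CYTOR. For CYTOR it bears on how reads could be assigned, as described below. All 9 members have a RefSeq position and 6 have an entry in the table of start regions. MALAT1 (chr11:65497738-65506516) has 3 RefSeq transcripts, and a pair of its starts have entries, whose reads enter a single ID. The first 50 transcribed bases at each lie on the plus strand (chr11:65497738-65497787 and chr11:65499045-65499094).
MALAT1 upstream start: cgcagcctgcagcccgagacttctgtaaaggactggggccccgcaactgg
MALAT1 downstream start: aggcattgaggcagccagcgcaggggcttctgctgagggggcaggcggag
NORAD (chr20:36045618-36050960, minus strand), the only cytoplasmic member with ample counts, overlaps no other RefSeq gene, and its first 50 bases lie at chr20:36050911-36050960.
NORAD start: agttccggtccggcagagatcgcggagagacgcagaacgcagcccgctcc
These stretches hold 66%, 70% and 68% G and C in the order shown.

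CYTOR (chr2:87455427-87521518) shares sequence with the lncRNA gene MIR4435-2HG elsewhere on the same chromosome. The windows of 250 bases before and 50 after each start share an unbroken run of 241 bases, printed in capitals, which reaches the edge of both windows and may go on beyond them.
CYTOR, chr2:87455177-87455476, plus strand: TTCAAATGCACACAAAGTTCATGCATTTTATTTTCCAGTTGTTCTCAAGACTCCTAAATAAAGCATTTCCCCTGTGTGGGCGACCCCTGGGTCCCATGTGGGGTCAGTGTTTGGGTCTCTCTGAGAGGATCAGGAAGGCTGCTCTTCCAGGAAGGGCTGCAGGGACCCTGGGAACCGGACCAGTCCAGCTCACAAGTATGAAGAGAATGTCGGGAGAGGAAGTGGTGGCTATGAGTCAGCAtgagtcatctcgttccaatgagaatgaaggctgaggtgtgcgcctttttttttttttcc
MIR4435-2HG, chr2:111495112-111495411, minus strand: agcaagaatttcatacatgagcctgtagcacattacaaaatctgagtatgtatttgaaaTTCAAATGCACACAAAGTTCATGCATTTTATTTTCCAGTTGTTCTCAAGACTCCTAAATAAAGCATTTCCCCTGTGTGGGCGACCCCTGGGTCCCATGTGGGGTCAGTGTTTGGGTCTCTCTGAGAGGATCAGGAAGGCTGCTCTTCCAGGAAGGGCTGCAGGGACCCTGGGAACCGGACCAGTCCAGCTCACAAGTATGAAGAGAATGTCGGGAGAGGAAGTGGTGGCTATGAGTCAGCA
The run lies wholly before the annotated start of CYTOR but covers all 50 bases after that of MIR4435-2HG, so these windows alone do not show how much of the transcribed parts is shared. How the authors counted reads that fit both genes is not given in the sources used here, so values for CYTOR are uncertain. Other members also overlap annotated genes. KCNQ1OT1 (chr11:2608328-2699994) lies inside KCNQ1, the 3′ part of OIP5-AS1 (chr15:41282697-41313338) overlaps OIP5, and MALAT1 overlaps the antisense transcript TALAM1. DANCR (chr4:52712394-52720697) spans SNORA26 and MIR4449, CYTOR overlaps 3 further lncRNA loci, and the span of PVT1 holds 7 small or noncoding genes. Libraries were strand-specific per the labels, but whether counting used the strand is not given, and the part of such overlaps in the values was not tested.

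PVT1 was the member whose RNA was more enriched in the FLAG IP with either form of ADAR3 than with the empty vector. For ADAR3 WT over control its log2 fold change in the authors' deposited table was 0.67 ± 0.18 (SE; 95% interval 0.33 to 1.02), or a ratio of 1.595, and it passed the test (normal test of fold over SE, Benjamini-Hochberg adjusted p 0.00233). For the R-mutant over control it was 0.75 ± 0.20 (95% interval 0.36 to 1.15), or 1.68-fold (normal test, adjusted p 0.00334). PVT1 was 1 of 8 members tested that passed in each comparison, and it was higher in both. Over all genes, 14.1% passed for ADAR3 WT and 13.3% for the R-mutant, and 5.99% and 5.38% passed as higher, so 1 of 8 is near the background share. Both comparisons use the same control libraries and are not independent of each other.

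Beside genes of similar mean count, PVT1 lay toward the upper edge. Genes tested were ranked by mean count and cut into 10 equal groups, and PVT1 fell in the highest, where the median log2 fold change was -0.03 for ADAR3 WT and -0.04 for the R-mutant over control. Its fold change exceeded that of 94.7% of the genes in that group for ADAR3 WT and 96.5% for the R-mutant. In that group 8.24% and 7.24% of genes passed as higher, while 15.9% and 16.2% passed as lower. The SE of PVT1 was smaller than that of most genes there, at the percentiles 2.32 and 8.66. Its 95% interval reached past a 2-fold rise in both comparisons, and it did not meet a minimum of a 2-fold difference.

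MALAT1 and NEAT1, the most heavily counted members, did not pass against control. In the authors' deposited tables MALAT1 had a log2 fold change of -0.06 ± 0.24 for ADAR3 WT over control (95% interval -0.54 to 0.42) and of -0.01 ± 0.27 for the R-mutant over control (-0.54 to 0.52). The normal test gave an adjusted p of 0.92 and 0.984. Both intervals lie within a 2-fold difference in either direction, which does not show that MALAT1 was unaltered. With its SE, MALAT1 would have needed a 1.57-fold and a 1.66-fold difference to pass. NEAT1 had deposited values of 0.21 ± 0.20 (95% interval -0.17 to 0.60) and 0.16 ± 0.21 (-0.26 to 0.57), with an adjusted p of 0.558 and 0.717 by the normal test. It would have needed 1.44-fold and 1.49-fold differences. The genes of MALAT1 and NEAT1 (chr11:65422798-65445540) lie 52197 bases apart on chromosome 11, and the difference between their values was not tested.

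Many other genes had values like those of MALAT1. Over the 4 log2 fold changes of each of 13284 genes whose mean was 50 or more in every table, the 3 genes nearest to MALAT1 by Euclidean distance were ENSG00000140992 (0.0239), ENSG00000129245 (0.0264) and ENSG00000009830 (0.0294). For NEAT1 they were ENSG00000237188 (0.0301), ENSG00000145391 (0.0319) and ENSG00000148700 (0.0351). Such nearness is common here, since 39.5% of the genes lay within 0.5 of MALAT1 and 35.9% within 0.5 of NEAT1. Among the 6 members that met this minimum, NORAD was nearest to MALAT1 (0.184) and PVT1 farthest (1.07), and NORAD was also nearest to NEAT1 (0.307). The distance joins comparisons that share libraries and is a description only.

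KCNQ1OT1 had the next largest values among the well-counted members. Its deposited log2 fold change was 0.24 ± 0.19 for ADAR3 WT over control (95% interval -0.13 to 0.62; normal test, adjusted p 0.469). For the R-mutant over control it was 0.54 ± 0.22 (95% interval 0.12 to 0.97), or 1.46-fold, which did not pass (normal test, p 0.0129, adjusted p 0.0801). When fold changes were centred on the median of genes in the same of the 10 groups by mean count, this value became 0.60 with an adjusted p of 0.0469 by the normal test and passed. TUG1 had the lowest values of the nuclear members, at -0.17 ± 0.25 and -0.26 ± 0.27 in the authors' deposited tables (normal test, adjusted p 0.749 and 0.613). RefSeq lists TUG1 (chr22:30969265-30979395) as protein coding, with 6 of its 8 transcripts coding, although it is known as a lncRNA.

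**Figure D1:**
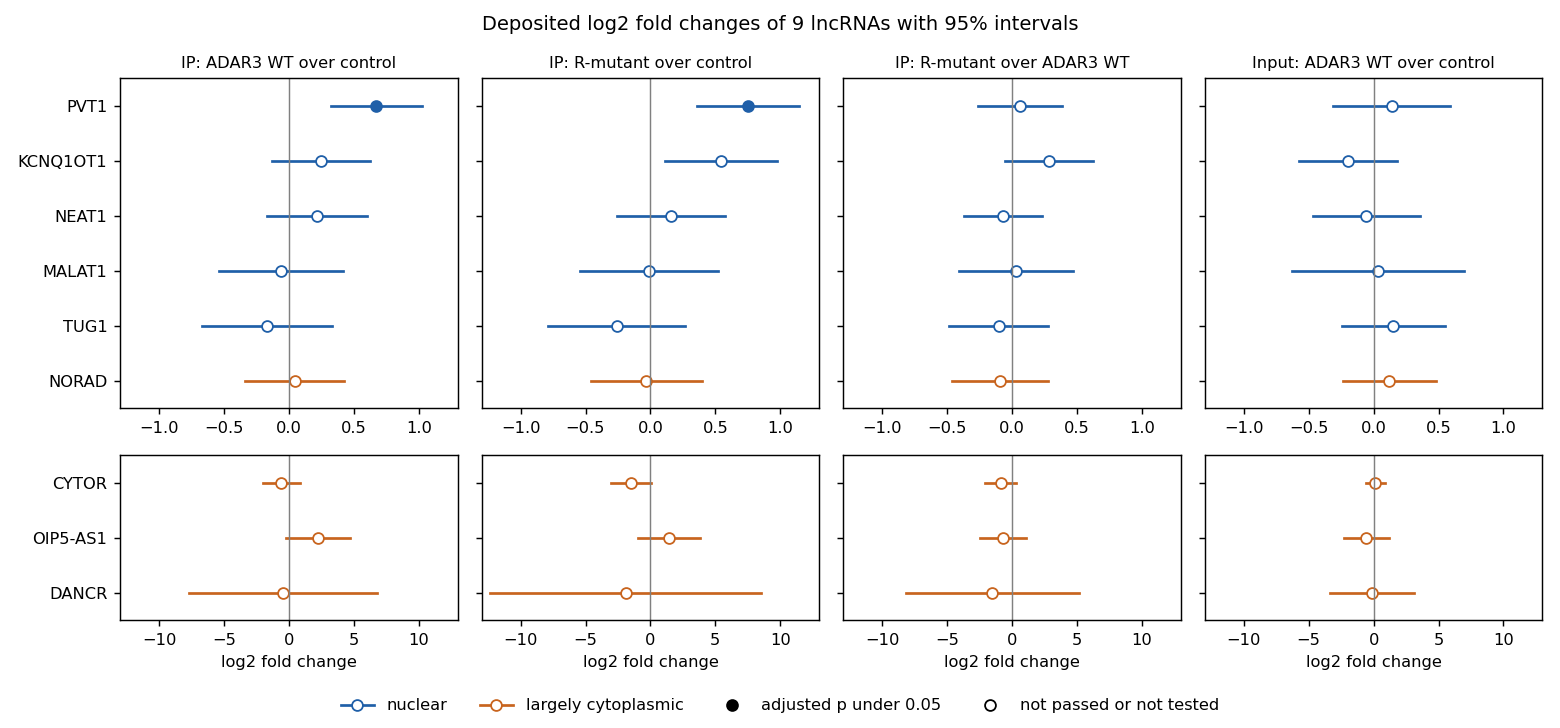
Log2 fold change (x axis) of each lncRNA (y axis) in the 3 IP comparisons and in input, with points at the deposited value and lines spanning the 95% interval. Blue marks nuclear and orange largely cytoplasmic members. Filled points, which only PVT1 has, passed an adjusted p of 0.05, and the lower panels have an x axis 10 times as wide for the 3 members with few counts.

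NORAD lay close to 0 in both comparisons with control. Its deposited log2 fold change was 0.05 ± 0.19 for ADAR3 WT (95% interval -0.34 to 0.43) and -0.03 ± 0.22 for the R-mutant (-0.45 to 0.39), with an adjusted p of 0.924 and 0.954 by the normal test. The cytoplasmic members with few counts had larger values with much larger errors. OIP5-AS1 stood at 2.26 ± 1.26 and 1.45 ± 1.22 in the authors' deposited tables (normal test, adjusted p 0.252 and 0.509), and would have needed a 10.5-fold and a 9.99-fold difference to pass. CYTOR stood at -0.59 ± 0.72 and -1.50 ± 0.78 (normal test, adjusted p 0.682 and 0.215), and would have needed 3.86-fold and 4.33-fold differences. DANCR, which was not tested, stood at -0.44 ± 3.69 and -1.91 ± 5.32 in the deposited tables. Smaller differences than these were not detectable for OIP5-AS1 and CYTOR at these counts.

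The contrast of nuclear with cytoplasmic members rests on these poorly counted RNAs. For ADAR3 WT over control the median log2 fold change was 0.21 over the 5 nuclear members (-0.17 to 0.67), -0.20 over the 4 cytoplasmic members (-0.59 to 2.26) and 0.01 over all genes tested. For the R-mutant over control it was 0.16 over the nuclear (-0.26 to 0.75), -0.76 over the cytoplasmic (-1.91 to 1.45) and 0.03 over all genes tested. The ranges overlap in both comparisons. Without CYTOR the difference of nuclear minus cytoplasmic medians fell from 0.41 to 0.17 for ADAR3 WT and from 0.92 to 0.19 for the R-mutant, and it was the same when only members with a mean of at least 50 were kept. The cytoplasmic side is then NORAD alone, so the tables hold no usable comparison of the compartments. In each comparison 1 of 5 nuclear and 0 of 3 cytoplasmic members tested passed (normal test, adjusted p under 0.05), beside 14.1% and 13.3% of all genes, so these counts do not set the compartments apart. At an unadjusted p under 0.05 there were 1 nuclear and 0 cytoplasmic members for ADAR3 WT, and 2 and 0 for the R-mutant, beside 5319 of 21121 and 5243 of 21120 genes.

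**Figure D2:**
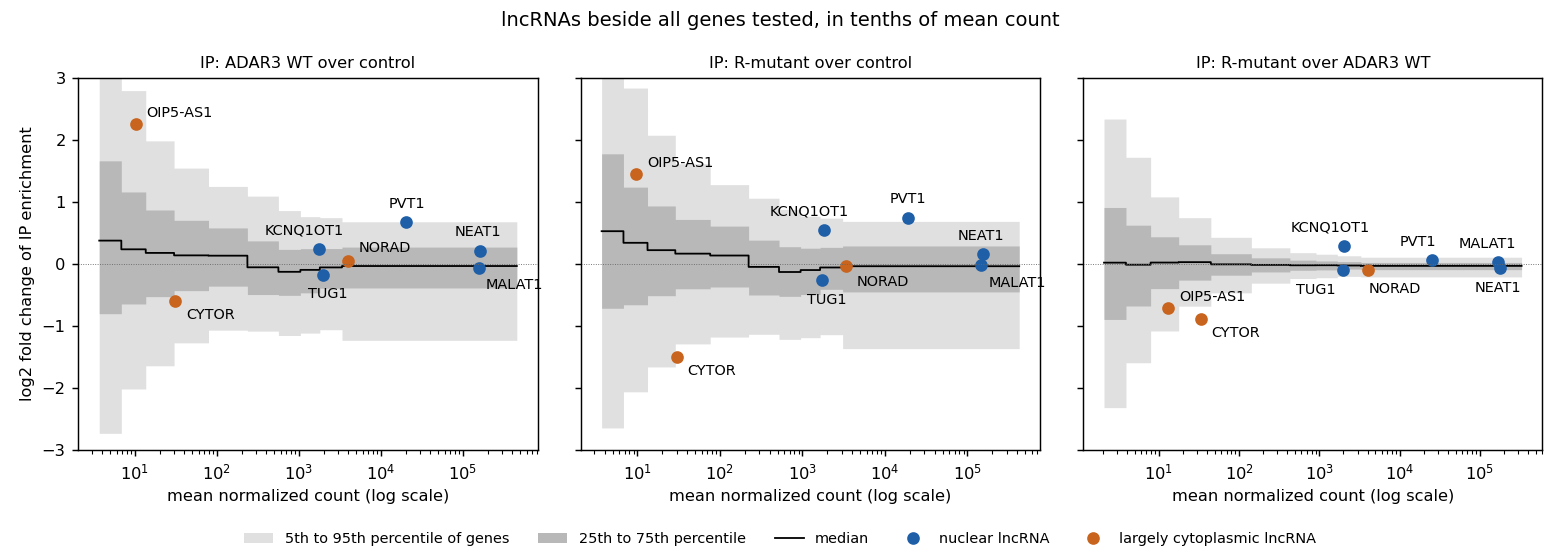
Log2 fold change of IP enrichment (y axis) against mean normalized count (x axis, log scale) for the 8 members tested, over the spread of all genes in 10 groups of equal size by mean. Light grey spans percentiles 5 to 95, dark grey 25 to 75, and the line is the median. PVT1 lies near the upper edge against control, while KCNQ1OT1 at 0.29 lies above the light band for R-mutant over ADAR3 WT. CYTOR lies below the light band for R-mutant over control and for R-mutant over ADAR3 WT.

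The direct comparison of the R-mutant with ADAR3 WT asks whether the R-domain alters which RNAs come down with the protein. No member tested passed (0 of 8; normal test, adjusted p under 0.05), and none had an unadjusted p under 0.05. Over all genes 1 of 23385 passed, or 0.00428%, and 146 had an unadjusted p under 0.05 (normal test). That share is well below the 0.05 that SEs of fitting size would give if no gene differed. The normal test is thus conservative in this comparison. Counts of 0 among 8 members are therefore near the background share and say little about the R-domain. PVT1 had a deposited log2 fold change of 0.06 ± 0.17 (95% interval -0.26 to 0.39), MALAT1 of 0.03 ± 0.22 (-0.41 to 0.47) and NEAT1 of -0.07 ± 0.15 (-0.37 to 0.23). TUG1 stood at -0.10 ± 0.19 and NORAD at -0.09 ± 0.19 in the same deposited table. For these and KCNQ1OT1, which are 6 of 8 members tested, the 95% interval lay within a 2-fold difference either way. This held for 55.2% of all genes tested and for 99.3% of genes in the group with the highest mean counts.

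KCNQ1OT1 had the largest value of the well-counted members in this comparison, at 0.29 ± 0.17 in the authors' deposited table (95% interval -0.06 to 0.63), or 1.22-fold. It had the smallest unadjusted p of the members (normal test, p 0.102) and did not pass. Its fold change nevertheless exceeded that of 99.8% of the 2338 genes in its group by mean count, whose values lay between -0.20 and 0.13 from percentile 5 to 95 around a median of -0.02. The median SE in that group was 0.19, wide beside this spread of values. CYTOR and OIP5-AS1 stood at -0.88 ± 0.61 and -0.71 ± 0.91, and DANCR at -1.51 ± 3.42, in the deposited table. The fold change of CYTOR exceeded that of only 2.27% of genes in its own group by mean count.

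The 3 IP tables fit together for the well-counted members. The difference of the deposited values for R-mutant and ADAR3 WT over control was 0.08 for PVT1 and 0.30 for KCNQ1OT1, against direct values of 0.06 and 0.29. The direct value was lower than this difference by nearly the same amount for all 6 well-counted members, from -0.0134 for MALAT1 to -0.0137 for KCNQ1OT1. For the poorly counted members, direct value minus difference was 0.102 for OIP5-AS1, 0.0195 for CYTOR and -0.0402 for DANCR. The tables share libraries, so the direct values add no independent evidence.

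The authors' own test gave another call for most members in at least 1 of the 3 IP comparisons, chiefly in R-mutant over ADAR3 WT. Their adjusted p, from a likelihood ratio test that follows the chi-square law at 7 degrees of freedom, covers more terms than the log2 fold change printed beside it. By that p, 4 of 8 members passed for ADAR3 WT over control, where 43% of all genes passed in the authors' deposited tables. For the R-mutant over control 4 of 8 passed, against 40.8% of all genes, and for the R-mutant over ADAR3 WT 7 of 8, against 51.1%. MALAT1 passed in all 3 of the authors' deposited tables, with an adjusted p of 0.000123, 0.000875 and 5.89e-09 in that order, although each of its fold changes was smaller than its SE. PVT1 had the smallest adjusted p of the members in each of the authors' deposited tables, at 2.27e-22, 3.07e-17 and 3.67e-27. The last of these stands beside a fold change of 0.06 ± 0.17, so it cannot be read as a difference between the R-mutant and ADAR3 WT. NORAD passed in none of the 3 deposited tables, with an adjusted p of 0.225, 0.73 and 0.126. Among the 7 members that passed for the R-mutant over ADAR3 WT, the fold change was smaller than its SE in 5. This held for 10589 of the 11947 genes that passed in the same table, so it is not particular to the members. What those further terms hold is not given in the sources used here.

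**Figure D3:**
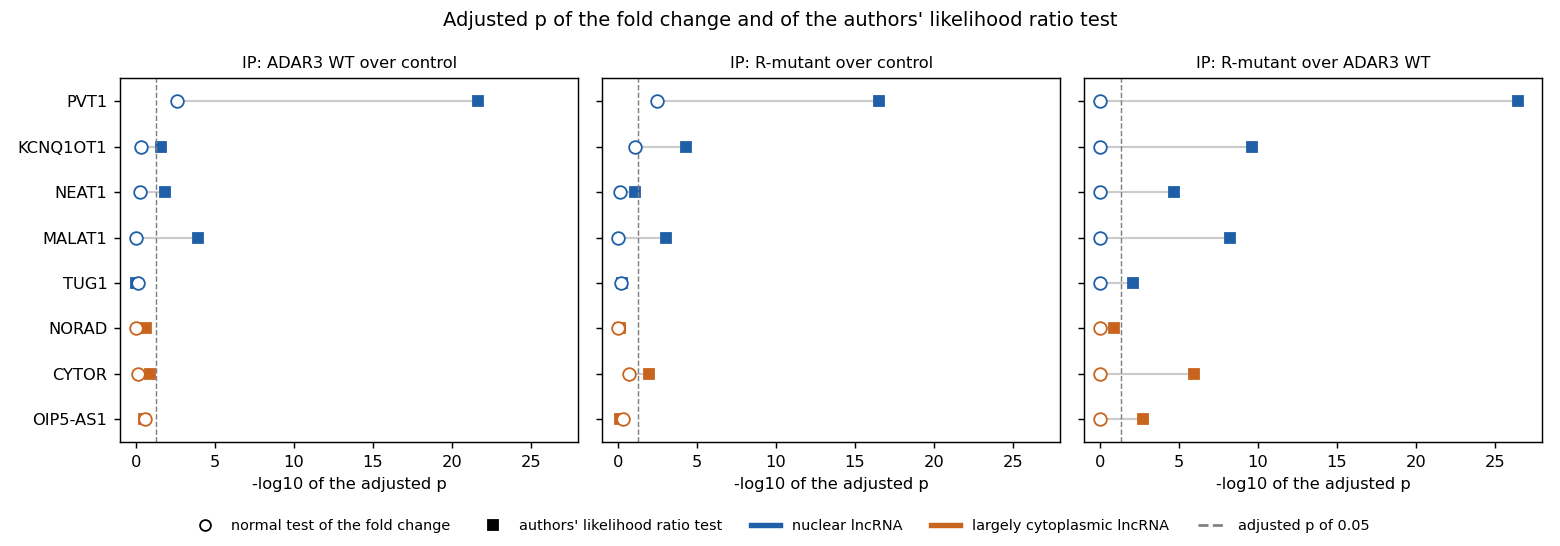
Negative log10 of the adjusted p (x axis) for the 8 members tested (y axis) in the 3 IP comparisons. Open circles are the normal test of the fold change, squares the authors' likelihood ratio test, and the dashed line marks 0.05. PVT1 alone has circles past the line, in the 2 comparisons with control, while 7 squares lie past it for R-mutant over ADAR3 WT.

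The RNA level of the members in input did not differ detectably between ADAR3 WT and control. None of 8 members tested passed (normal test, adjusted p under 0.05, also 0 by the authors' adjusted p), where 0.289% of all genes did. At an unadjusted p under 0.05 there were 0 members, beside 595 of 20411 genes, a share that is also below 0.05. In the authors' deposited table the log2 fold change in input was 0.14 ± 0.23 for PVT1 (95% interval -0.31 to 0.59) and -0.19 ± 0.19 for KCNQ1OT1 (-0.57 to 0.18). It was 0.04 ± 0.34 for MALAT1 (-0.62 to 0.70), -0.06 ± 0.21 for NEAT1 (-0.47 to 0.36), 0.15 ± 0.20 for TUG1 and 0.12 ± 0.18 for NORAD. The SE of MALAT1 was larger than that of 96.9% of genes in its group by mean count, and MALAT1 would have needed a 2.44-fold difference to pass. CYTOR stood at 0.15 ± 0.37, OIP5-AS1 at -0.57 ± 0.88 and DANCR at -0.15 ± 1.64 in the deposited table. The 95% interval lay within a 2-fold difference for 7 of 8 members, against 66.8% of all genes tested. In groups 8 to 10 by mean count (10 the highest), which hold these members except CYTOR, it did so for 98.1% to 98.6% of genes. Input of the R-mutant was not analysed here.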

How the data were processed

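Input and IP RNA of 3 genotypes was sequenced in 18 libraries, in 6 groups of 3. Alignment with STAR 2.7.7a to GRCh38, featureCounts and DESeq2 are named in the submitters' processing notes. The annotation and the DESeq2 models are not given in the sources here. Per the file headers, each table holds a mean signal (the mean of normalized counts), a log2 fold change with its SE on the log2 scale, a test statistic (a score with no fixed range), and p-values made by the authors. IP fold changes were read as IP over input between genotypes. This rests on the tables' names and on slopes against the change in input of -0.79 (ADAR3 WT against control), a weaker -0.35 (R-mutant against control) and 0.48 (R-mutant against ADAR3 WT), taken over genes of input mean below 10.

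The members and lists were chosen with earlier results of these data known. The test was a two-sided normal test of deposited fold over SE, adjusted by Benjamini-Hochberg over all genes with a deposited adjusted p, at 0.05. It replaced the authors' test because in the IP tables their p is not that of the fold change. All 9 members were named; the other fixed gene lists and cell type markers were not tested, because no table used here pairs their symbols with IDs. A set of 6 per-library columns matched no label and was not used. RefSeq sequences were matched by symbol. The procedure was tested on simulated data whose errors were drawn from the deposited SEs, which cannot check whether those SEs are of the right size. Python 3.11.15, numpy 2.4.6, pandas 2.3.3, scipy 1.17.1, statsmodels 0.14.6 and matplotlib 3.10.9 were used.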

Additional observations from a re-analysis of the deposited data

How the results depend on the processing

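No paired analysis was possible because no per-library value matches the labels, and for the same reason no replicate was left out. Of 216 combinations of member, comparison and setting, 200 kept their call or lack of one, 14 gained a call and 2 lost one. No called value changed sign. In the main analysis only PVT1 was called, in 2 comparisons, so most of the 200 were members that stayed uncalled. An adjusted p under 0.01 or a 2-fold minimum could only remove calls, and in input the authors' p is that of the same test. The 200 are therefore no measure of robustness. The 2 losses were those of PVT1 against control when a 2-fold minimum was set, and 13 of the 14 gains came with the authors' adjusted p, while the other was that of KCNQ1OT1 after centring by group of mean count. Over all genes, the authors' adjusted p gave 9080, 8626 and 11947 calls in the IP comparisons (ADAR3 WT and then R-mutant against control, and R-mutant against ADAR3 WT), in place of 2986, 2814 and 1. An adjusted p under 0.01 gave 1823 and 1681 against control and 37 in place of 59 in input, and a 2-fold minimum gave 1558 and 1632 against control. A mean of at least 50 gave 2 calls for R-mutant over ADAR3 WT. These moves follow from stricter or different tests and from fewer genes tested. The difference of nuclear minus cytoplasmic medians was 0.17 for ADAR3 WT over control and 0.19 for R-mutant over control under each alternative: without CYTOR, centred by group of mean (which leaves out DANCR), and, both chosen after seeing the data, with a mean of at least 50 or with a deposited adjusted p. Each of these subtracts the value of NORAD from that of NEAT1, both in the highest group by mean. Their agreement is therefore arithmetic and says nothing about the compartments. For R-mutant over ADAR3 WT the difference of medians was 0.83, with nuclear values from -0.10 to 0.29 and cytoplasmic values from -1.51 to -0.09. It was 0.74 to 0.79 under 3 of the same alternatives, where the poorly counted OIP5-AS1 (-0.71 ± 0.91) was the cytoplasmic median. With a mean of at least 50 it fell to 0.12. In input the difference of medians was 0.05, 0.18 without CYTOR and -0.08 under the other 3. The median SE of single members there was 0.22, which is not the error of a difference of medians, and the difference was not tested. Depth per library is unknown, and counts limit OIP5-AS1, CYTOR and DANCR most.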
